A study of Mus musculus with 28 samples.

Results

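The 149 genes described here carry a symbol of Zfp followed by a number only and had a mean of at least 100 counts over the 6 CaMK2a IP libraries. They were taken from 295 genes with such a symbol among 14711 genes in any deposited table. Of the others, 141 lay below that level and 5 were in no table of the CaMK2a IP. The members were thus selected on their counts in those libraries, and their level in the CaMK2a IP is a description and no result. Just inside it lay Zfp551, Zfp511 and Zfp758 with mean counts of 103.0, 103.3 and 103.8, and just outside it Zfp583, Zfp160 and Zfp653 with 95.5, 96.8 and 97.5. All 149 members were counted in all 28 libraries and all passed the filter on low counts in each comparison.

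Zfp is the mouse name for many genes whose proteins carry C2H2 zinc fingers, short loops folded around a zinc ion that each read a few bases of DNA. The largest subfamily adds a KRAB box, which recruits the corepressor Trim28 and through it histone deacetylases and histone methylation, and its members are known for silencing retroelements and for lying in clusters of similar genes. Others without a KRAB box act as activators, as partners of corepressors or in RNA and protein turnover. In neurons the family is known mostly through single members, among them Zfp536 and Zfp462 in neuronal differentiation and Zfp292 and Zfp711, whose human counterparts are linked to intellectual disability.

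The libraries came from C57BL/6 mice of 3 to 4 weeks with the genotype CaMK2a-Cre/+; LSL-Rpl22-HA/+ or PV-Cre/+; LSL-Rpl22-HA/+, in which Cre switches on an HA tag on the ribosomal protein Rpl22 in cells that use the CaMK2a or the parvalbumin (PV) gene. Kainic acid, which opens kainate-type glutamate receptors and drives seizures, or PBS was injected 6 h before hippocampal CA1 was dissected. RNA bound to tagged ribosomes was pulled down with an HA antibody (IP), and the lysate before that step gave the input, which holds RNA of all cells of the tissue. The 8 groups were CaMK2a IP after kainic acid, CaMK2a IP after PBS, CaMK2a input after kainic acid and CaMK2a input after PBS, with 3 libraries each, and the same 4 groups of the PV line, with 4 libraries each. Tissue of 4 mice was pooled for each CaMK2a library (20 ng of RNA) and of 9 to 10 mice for each PV library (2.5 ng), so the lines differ in more than the driver. Column headings put hour 0 on PBS where the labels have 6 h, so the time after PBS is uncertain.

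Levels are given as CPM, which scales each count to its library's total with factors over all 28 libraries, whose depth was 6.061 to 15.847 M counts. In the CaMK2a line, Camk2a averaged 6469.6 CPM in the IP and 5672.7 CPM in the input after kainic acid, while Pvalb averaged 1.54 CPM in the IP and 23.4 CPM in the input. In the PV line after kainic acid, Pvalb averaged 112.2 CPM in the IP and 5.98 CPM in the input. Markers of other cells remained in that IP. Camk2a averaged 4879.7 CPM in the PV IP and 7047.0 CPM in the PV input. The oligodendrocyte marker Mbp averaged 2007.7 CPM and 2204.0 CPM. PV replicate 4 stood apart in all 4 PV groups, with the lowest share of counts in the members in each. Its members summed to 6673 CPM in the PV IP after PBS, against 8173 to 8468 CPM in the other 3 libraries. PV results are therefore also given over replicates 1 to 3.

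The deposited gene coordinates (mm10) placed the members on 19 chromosomes, 39 of them on chromosome 7, and 57 lay within 200 kb of another member. A search of the GENCODE M21 proteins found 3 or more C2H2 finger motifs in 137 of 149 members, against 2.88% of all 22262 genes with a protein there. The number of finger motifs per member ran from 0 to 36 with a median of 11. A KRAB-like box was found in 71 members (47.7%) and in 1.61% of all genes. Members with a KRAB-like box had a median of 12 finger motifs and the 78 without one had a median of 9. Zfp703, Zfp365 and Zfp330 carried no such motif, although their symbols fit the rule. Exons of 42 members overlapped exons on the opposite strand, and since strandedness is not stated their reads cannot be told from those of the other gene. Only Zfp865, Zfp866 and Zfp93 shared more than 10% of their 75-base stretches with another gene.

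Per kb of listed length, Zfp365 had the highest level in the CaMK2a IP with a mean of 196.5 CPM per kb over the 6 libraries. It encodes DBZ, a protein that binds Disc1, and it also had the highest mean count, 8302.5. Zfp91, an E3 ubiquitin ligase, followed with 54.8 CPM per kb, and then came Zfp706, Zfp260 and Zfp664 with 45.0, 39.6 and 33.2 CPM per kb. At the low end Zfp536 had 1.15 CPM per kb and Zfp316 had 1.51 CPM per kb, below Zfp870, Zfp111 and Zfp174 with 1.83, 2.02 and 2.08 CPM per kb. Most members were rare transcripts: the median member had 24.4 CPM (CaMK2a IP) after kainic acid and 24.6 CPM after PBS, 16.5 CPM in the CaMK2a input after kainic acid and 15.9 CPM after PBS, 26.7 CPM in the PV IP after kainic acid and 26.3 CPM after PBS, and 21.9 CPM in the PV input after kainic acid and 20.5 CPM after PBS.

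Kainic acid raised the same 6 members in each of the 3 fractions that could be tested. Zfp516, Zfp703, Zfp948, Zfp667, Zfp655 and Zfp281 rose in the CaMK2a input, in the PV IP and in the PV input, by log2 fold changes of 0.65 to 2.26. These 6 are 4.03% of the members, against 3.67% of the 10682 genes tested in all 3 and 4.41% of the other genes at the level of the rule, a share near the background. Without a replicate block no member was called lower by edgeR in all 3, against 0.374% of all genes, and 111 of 149 (74.5%) were called in none, against 63.3% of all genes and 58.2% of the others. In the CaMK2a input 15 members rose and 19 fell (10.1% and 12.8%), against 19.3% and 15.7% of all 11287 genes tested and 20.9% and 20% of the 7261 other genes at the level of the rule. In the PV IP 6 rose and 3 fell (4.03% and 2.01%), against 4.05% and 0.801% of all genes and 4.93% and 0.868% of the others at the level. In the PV input 8 rose and 3 fell (5.37% and 2.01%), against 8.21% and 3.36% of all genes and 8.88% and 4.41% of the others. Calls are adjusted p under 0.05 in edgeR's quasi-likelihood test with Benjamini-Hochberg adjustment over all genes tested. In input RNA, more RNA per cell and more cells of a type cannot be told apart.

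**Figure D1:**
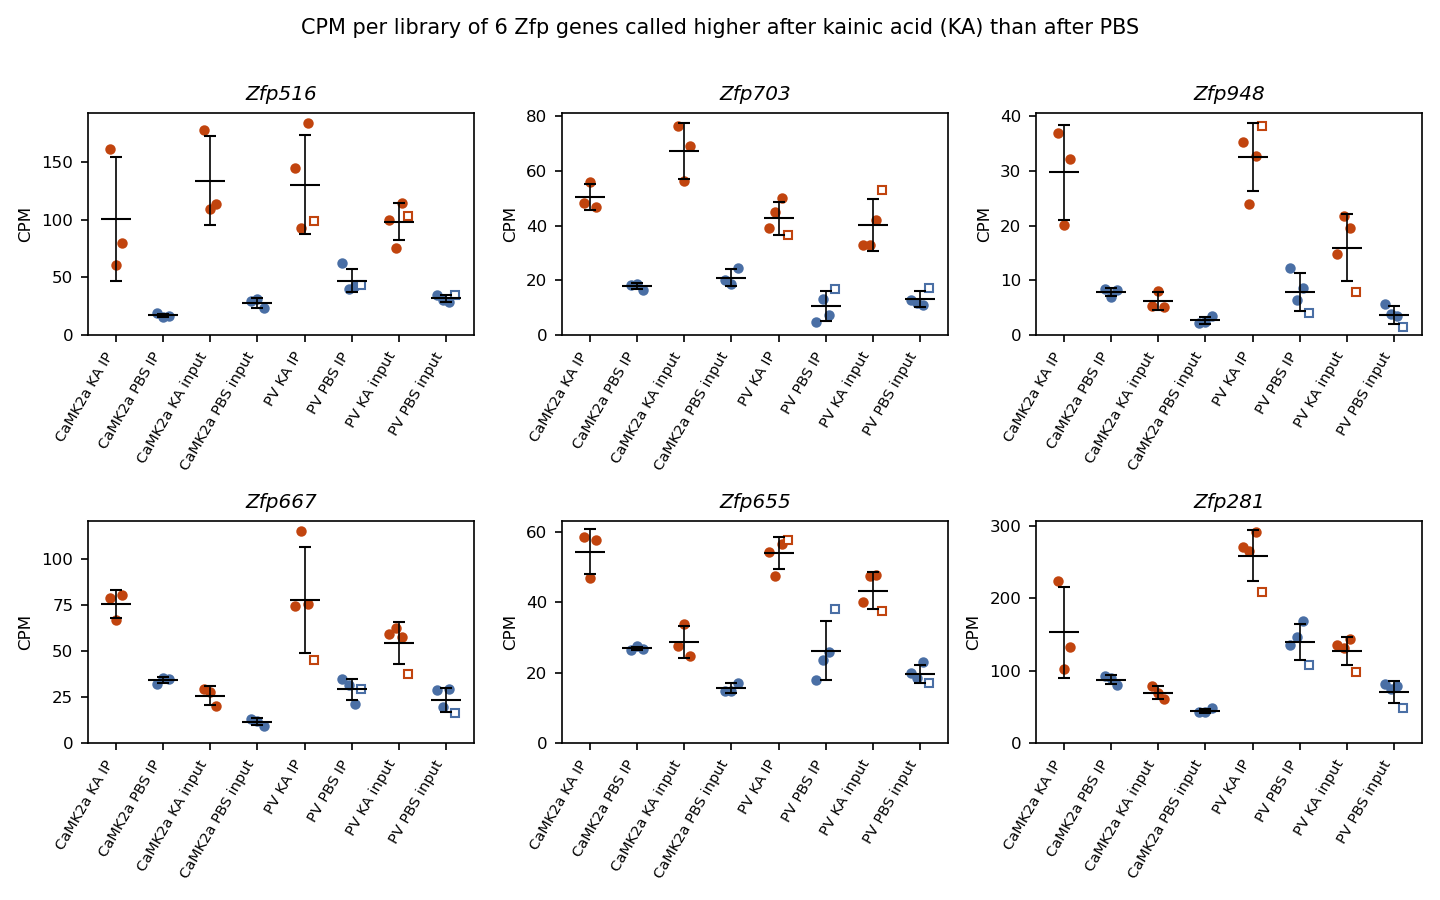
CPM per library of the 6 members called higher after kainic acid in all 3 tested fractions. Each panel has the 8 groups on the horizontal axis and CPM from 0 on the vertical axis, red for kainic acid and blue for PBS, with open squares for PV replicate 4 and bars for the group mean ± SD. The red points lie above the blue ones of the same fraction in each panel, and the CaMK2a IP libraries, which chose the members, are shown without a test.

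Zfp516, known as a cold-inducible activator of brown fat genes, had the largest rise in the CaMK2a input. It had 178.5, 109.8 and 114.3 CPM after kainic acid, against 29.2, 31.3 and 23.4 CPM after PBS. The lowest library after kainic acid lay more than 3-fold above the highest after PBS, and the log2 fold change was 2.26 ± 0.17 (SE; adjusted p = 8.9e-09). Its levels in the PV IP were 145.4, 93.4, 184.5 and 99.3 CPM after kainic acid, against 62.3, 39.8, 43.0 and 43.7 CPM after PBS. PV input libraries had 99.7, 76.0, 115.0 and 103.8 CPM after kainic acid, against 34.4, 30.1, 28.3 and 34.6 CPM after PBS. The groups did not overlap in either fraction, with log2 fold changes of 1.44 ± 0.25 (adjusted p = 0.0017) and 1.60 ± 0.16 (adjusted p = 5.9e-05). It carries 10 finger motifs and no KRAB-like box, and lies on chromosome 18.

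Zfp703, whose protein works with Groucho corepressors and whose human counterpart is amplified in luminal breast cancer, rose in all 3 tested fractions. In the CaMK2a input it had 76.5, 56.2 and 69.2 CPM after kainic acid, against 20.0, 18.6 and 24.5 CPM after PBS (log2 fold change 1.69 ± 0.15, adjusted p = 9.9e-08). Its levels in the PV IP were 39.0, 45.0, 50.2 and 36.5 CPM after kainic acid, against 4.91, 13.2, 7.39 and 16.8 CPM after PBS (1.98 ± 0.37, adjusted p = 0.0031). PV input libraries had 33.1, 32.9, 41.9 and 53.0 CPM after kainic acid, against 12.7, 11.7, 10.9 and 17.3 CPM after PBS (1.57 ± 0.23, adjusted p = 0.00064). All groups were apart, and the PBS libraries of the PV IP spread most. Zfp703 lies at chr8:26977336-26981462 and its exons overlap those of Gm45371 on the opposite strand, so its reads cannot be told from that gene's.

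Zfp948, a KRAB gene with 15 finger motifs, was the member with the largest rise in both PV fractions. In the PV IP it had 35.3, 23.9, 32.8 and 38.2 CPM after kainic acid, against 12.3, 6.42, 8.56 and 4.11 CPM after PBS (log2 fold change 2.03 ± 0.37, adjusted p = 0.0025). In the PV input it had 14.9, 21.7, 19.5 and 7.82 CPM after kainic acid, against 5.62, 3.91, 3.54 and 1.5 CPM after PBS (2.11 ± 0.42, adjusted p = 0.0059). PV replicate 4 had the lowest value of both groups in the PV input, and over replicates 1 to 3 the log2 fold changes were 1.74 in the PV IP and 2.08 in the PV input. In the CaMK2a input it was rare, with 5.37, 8.13 and 5.06 CPM after kainic acid and 2.25, 2.45 and 3.44 CPM after PBS (1.22 ± 0.31, adjusted p = 0.0053).

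Zfp667 is a KRAB gene described in rat heart after ischaemic preconditioning. It had 29.6, 27.7 and 20.2 CPM in the CaMK2a input after kainic acid, against 13.2, 11.8 and 9.39 CPM after PBS (log2 fold change 1.17 ± 0.18, adjusted p = 9.1e-05). Its levels in the PV IP were 74.8, 115.6, 75.5 and 45.3 CPM after kainic acid, against 34.9, 31.7, 21.5 and 29.3 CPM after PBS (1.38 ± 0.28, adjusted p = 0.0065). The groups were apart in both, and also in the PV input, where the log2 fold change was 1.18 ± 0.24 (adjusted p = 0.0063). Zfp655, whose human counterpart binds Vav proteins, had 27.7, 33.8 and 24.8 CPM in the CaMK2a input after kainic acid, against 14.9, 14.7 and 17.2 CPM after PBS (0.89 ± 0.16, adjusted p = 0.00034). In the PV input it had 40.1, 47.6, 47.9 and 37.6 CPM after kainic acid, against 20.0, 18.4, 23.0 and 17.2 CPM after PBS (1.11 ± 0.17, adjusted p = 0.0011). Its call in the PV IP (1.01 ± 0.27, adjusted p = 0.039) was lost when any library other than PBS replicate 4 was left out, with log2 fold changes of 0.86 to 1.08, and with upper-quartile factors at 0.94.

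Zfp281 binds GC-rich DNA and is known as a regulator of pluripotency. It had 270.4, 265.0, 291.2 and 208.5 CPM in the PV IP after kainic acid, against 136.1, 146.9, 168.0 and 107.3 CPM after PBS (log2 fold change 0.87 ± 0.18, adjusted p = 0.0092). The groups did not overlap, although PV replicate 4 was lowest in each. The log2 fold change was 0.65 ± 0.12 in the CaMK2a input (adjusted p = 0.00053) and 0.82 ± 0.18 in the PV input (adjusted p = 0.013), where the call was lost at 0.75 without kainic acid replicate 3. Over PV replicates 1 to 3 all 6 genes were still called in both PV fractions.

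The bases around the start of Zfp281, Zfp655, Zfp667 and Zfp948 are shown so that members that rose together can be set side by side. Those of Zfp516 and Zfp703, which rose with them, are not shown, and nothing is said of their promoters. RefSeq promoter entries (GRCm38.p6, 250 bases before to 50 after the start) were matched by gene ID for 122 of 149 members. Those of Zfp281 (chr1:136624651-136624950, plus strand), Zfp655 (chr5:145231492-145231791, plus strand), Zfp667 (chr7:6286330-6286629, plus strand) and Zfp948 (chr17:21566728-21567027, plus strand) read, 5′ to 3′, with capitals for a match to TGACGT:
Zfp281: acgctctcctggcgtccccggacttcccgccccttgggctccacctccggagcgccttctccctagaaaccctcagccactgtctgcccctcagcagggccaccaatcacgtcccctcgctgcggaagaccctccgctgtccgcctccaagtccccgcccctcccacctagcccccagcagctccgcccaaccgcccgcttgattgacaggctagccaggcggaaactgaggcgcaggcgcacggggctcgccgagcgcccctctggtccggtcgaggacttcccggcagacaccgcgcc
Zfp655: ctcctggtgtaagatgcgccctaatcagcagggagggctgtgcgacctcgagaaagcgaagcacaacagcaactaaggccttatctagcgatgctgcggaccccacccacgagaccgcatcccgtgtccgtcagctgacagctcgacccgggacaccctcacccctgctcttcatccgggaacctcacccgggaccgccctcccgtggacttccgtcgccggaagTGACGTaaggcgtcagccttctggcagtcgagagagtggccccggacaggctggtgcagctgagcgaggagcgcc
Zfp667: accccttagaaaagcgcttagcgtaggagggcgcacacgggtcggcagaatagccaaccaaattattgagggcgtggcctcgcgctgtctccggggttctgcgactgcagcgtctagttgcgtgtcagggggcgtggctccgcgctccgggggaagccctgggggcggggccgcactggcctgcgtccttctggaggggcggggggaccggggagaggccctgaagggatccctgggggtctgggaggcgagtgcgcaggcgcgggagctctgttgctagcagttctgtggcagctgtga
Zfp948: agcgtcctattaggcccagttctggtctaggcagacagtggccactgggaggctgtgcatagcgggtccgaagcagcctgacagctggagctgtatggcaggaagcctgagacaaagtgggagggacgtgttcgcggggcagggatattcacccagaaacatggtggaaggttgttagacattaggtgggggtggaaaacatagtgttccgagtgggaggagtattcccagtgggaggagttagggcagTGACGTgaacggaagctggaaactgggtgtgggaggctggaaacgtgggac

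Those promoters were searched on both strands for TGACGT, the core of the cyclic AMP response element, and for TGANTCA, the AP-1 element, which share only their first 3 letters. TGACGT was found once each in the promoters of Zfp655 and Zfp948 and not in those of Zfp281 and Zfp667, and TGANTCA in none of the 4. Of all 32851 RefSeq promoters 7.51% held TGACGT, against 15.9% of the 151 entries that belong to members. TGANTCA was held by 7.81% of all promoters and by 5.3% of the members' entries. A match is a run of letters and was not tested as a binding site.

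**Figure D2:**
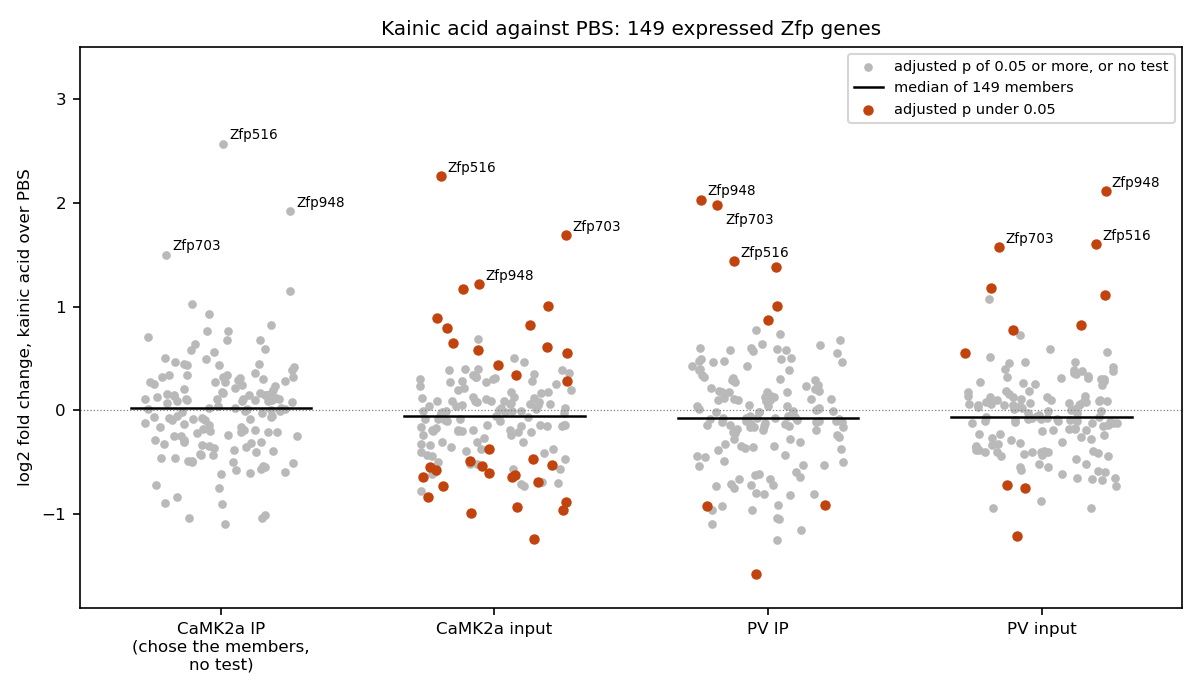
Log2 fold changes of kainic acid over PBS for the 149 members in 4 fractions, 1 point per member with random horizontal spread, red where the adjusted p was under 0.05, and a black line at the median. The medians lie between -0.07 and 0.02, with Zfp516, Zfp703 and Zfp948 high in each fraction. The CaMK2a IP chose the members and has no test.

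Without the replicate block a further 7 members were called higher in the CaMK2a input and in neither PV fraction, and Zfp382 and Zfp142, named after their values were seen, rose in both inputs. Zfp275 had 60.9, 40.3 and 39.7 CPM in the CaMK2a input after kainic acid, against 24.5, 25.6 and 19.6 CPM after PBS (log2 fold change 1.01 ± 0.17, adjusted p = 0.00015). In the PV input it had 34.9, 23.4, 33.9 and 27.4 CPM after kainic acid and 29.8, 26.7, 26.0 and 29.6 CPM after PBS, which overlap (0.06 ± 0.18, adjusted p = 0.88). The difference between these effects in edgeR's test was 0.98 ± 0.26, with an unadjusted p of 0.0019 and an adjusted p of 1, so it did not pass. Zfp382, a KRAB repressor, rose by 0.82 ± 0.18 in the CaMK2a input (adjusted p = 0.0021) and by 0.77 ± 0.22 in the PV input (adjusted p = 0.044). Without kainic acid replicate 3 of the PV input, neither Zfp382 nor Zfp142 kept its call there. Zfp711, which works with the histone demethylase Phf8, rose by 0.79 ± 0.27 in the CaMK2a input (adjusted p = 0.029), and in the PV input it passed with replicate number as a block (1.06 ± 0.20, adjusted p = 0.00017) and not without it (1.07, adjusted p = 0.059). The smallest called rises there were those of Zfp664 (0.28 ± 0.10) and of Zfp609 (0.34 ± 0.10), which acts with Nipbl in neural progenitors. The call of Zfp609 was lost without kainic acid replicate 1 (0.26), PBS replicate 2 (0.36) or PBS replicate 3 (0.29).

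In the CaMK2a input the deepest fall was that of Zfp239, known as MOK-2. It had 16.1, 25.3 and 11.5 CPM after kainic acid, against 43.8, 43.5 and 38.5 CPM after PBS (log2 fold change -1.24 ± 0.20, adjusted p = 0.0001). In the PV IP it had 30.3, 53.7, 35.3 and 35.4 CPM after kainic acid, against 75.7, 61.4, 76.1 and 72.6 CPM after PBS (-0.91 ± 0.23, adjusted p = 0.03). Without a replicate block it was the only member called lower in both of these, and its PV IP call was lost without any library other than kainic acid replicates 2 and 4 (-0.98 to -0.81) and over replicates 1 to 3 (-0.86). In the PV input it passed with replicate number as a block (-1.01 ± 0.14, adjusted p = 6e-06) and not without it (-0.94, adjusted p = 0.061). Next in the CaMK2a input came Zfp763, Zfp286, Zfp174, Zfp74 and Zfp3, with log2 fold changes of -0.99, -0.96, -0.93, -0.88 and -0.83. Zfp286, Zfp174 and Zfp74 each share exonic bases with genes on the opposite strand. The call of Zfp763 was lost without any library other than kainic acid replicate 2 (-1 to -0.73), and that of Zfp286 without replicate 2 of kainic acid (-0.78) or of PBS (-0.86).

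Zfp462, a chromatin regulator whose loss of 1 copy causes a developmental syndrome in humans, fell in both inputs. In the CaMK2a input it had 56.4, 58.3 and 57.5 CPM after kainic acid, against 88.1, 84.4 and 77.9 CPM after PBS (log2 fold change -0.54 ± 0.11, adjusted p = 0.00085). In the PV input it had 78.6, 78, 82.9 and 61.8 CPM after kainic acid, against 144.9, 126.9, 125.7 and 98.6 CPM after PBS (-0.75 ± 0.15, adjusted p = 0.008). The groups were apart in both, while in the PV IP they overlapped (-0.73 ± 0.34, adjusted p = 0.31). Also lower in the PV input was Zfp810, with 7.37, 6.64, 4.65 and 5.55 CPM after kainic acid, against 17.4, 10.7, 16.3 and 10.7 CPM after PBS (-1.21 ± 0.27, adjusted p = 0.012). That call was lost at -1.08 without PBS replicate 1. Zfp169, at -0.72 ± 0.21, lay at the threshold and its call was lost without any library other than kainic acid replicate 2 (-0.79 to -0.61) and with no filter on low counts (-0.72).

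In the PV IP, Zfp605 and Zfp260 fell beside Zfp239. Zfp260, described as an effector of alpha-adrenergic signalling in heart, had 113.4, 124.1, 88.2 and 111.2 CPM after kainic acid, against 227.4, 207.5, 227.2 and 153.9 CPM after PBS (log2 fold change -0.92 ± 0.19, adjusted p = 0.0067). Over replicates 1 to 3 it was -1.04. Zfp605 had 8.52, 8.37, 17.6 and 14.1 CPM after kainic acid, against 54.2, 25.7, 44.7 and 19.0 CPM after PBS (-1.58 ± 0.38, adjusted p = 0.021). Both were apart, but the PBS libraries of Zfp605 spread almost 3-fold, its exons overlap Gm15484 on the opposite strand, and its call was lost without kainic acid replicate 1 (-1.44) or 2 (-1.43) or PBS replicate 1 (-1.32) or 3 (-1.46). In the inputs the groups of Zfp260 overlapped, at -0.37 ± 0.17 in CaMK2a (adjusted p = 0.11) and -0.40 ± 0.32 in PV (adjusted p = 0.49), and with replicate number as a block both passed (-0.38 ± 0.14, adjusted p = 0.025, and -0.45 ± 0.12, adjusted p = 0.0045).

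Of the functional lists, the one of 23 measured Zfp genes without KRAB and with known roles in development, neurons or chromatin had 7 called higher and 6 lower in the CaMK2a input (30.4% and 26.1%, against 19.3% and 15.7% of all genes and 20.9% and 20% of the others at the level), among them Zfp516, Zfp711 and Zfp281 higher and Zfp423 (-0.60 ± 0.14), Zfp462 and Zfp148 (-0.53 ± 0.12) lower. These lists were chosen with earlier results of these data known, so their shares are a description. The 8 measured members of the list for silencing of retroelements, imprinting and p75NTR signalling, among them Zfp445, which guards imprints, and Zfp369, known as NRIF2, had none called by edgeR in any of the 3 tests, with 2, 1 and 1 lower at an unadjusted p under 0.05. Of the 11 in the list for RNA, ribosomes and protein turnover, 1 was called higher and 2, Zfp346 (-0.49 ± 0.16) and Zfp706 (-0.37 ± 0.11), were lower in the CaMK2a input. Trim28 itself, the KRAB corepressor, averaged 96.3 ± 5.48 CPM in the CaMK2a input after kainic acid and 97.1 ± 10.4 CPM after PBS (SD, n = 3 each). Of 18 tested Trim28 partners 2 rose and 5 fell there (11.1% and 27.8%, against the same 19.3% and 15.7% of all genes), with Mta2 (0.56 ± 0.14) and Morc2a (0.51 ± 0.14) higher and Dnmt1 (-0.52 ± 0.13) among those lower. In the PV IP and PV input none of the 18 was called by edgeR, with 0 in the PV IP and 1 higher and 1 lower in the PV input at an unadjusted p under 0.05.

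Members were also split by the KRAB-like box. In the CaMK2a input 3 of 71 with a box rose and 8 fell (4.23% and 11.3%), with a median log2 fold change of -0.15. Of 78 without one 12 rose and 11 fell (15.4% and 14.1%), with a median of 0.03. Of all genes tested there 19.3% rose and 15.7% fell. The medians over all members were -0.05 there, -0.07 in the PV IP and -0.06 in the PV input, against -0.02 over all genes in each. Across the 149 members the effects in the CaMK2a input and the PV input, which share no library, had a Spearman rho of 0.72. The 2 inputs share the tissue and the treatment, and genes are no independent replicates.

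The counts of falls moved with the fit. With replicate number as a block, 22 members fell in the PV input in place of 3, while 12 rose in place of 8. In that fit 14.3% of all genes fell and 16.5% rose, against 14.8% and 8.05% of the members, so the members' share of falls lay near the background. Only 2 of 4 PV input libraries correlated best with their own number, so the pairing behind this block is uncertain. Over PV replicates 1 to 3, 14 members rose and 13 fell in the PV input, and the 8 and 3 of the fit to all replicates were among them, while 14.5% of all genes rose and 10.3% fell (9.4% and 8.72% of the members). With upper-quartile factors the CaMK2a input had 13 rises and 28 falls in place of 15 and 19 (8.72% and 18.8%, against 16.8% and 19.8% of all genes). The summed level of 8 pyramidal markers moved with kainic acid in the CaMK2a input (7521 to 7877 CPM after kainic acid, against 8729 to 9892 CPM after PBS, none at 0) and in the PV input (8119 to 8776 CPM, against 9232 to 10040 CPM). Most of this sum is Camk2a, which averaged 5672.7 CPM in the CaMK2a input after kainic acid and 7000.7 CPM after PBS. Of the 8 only Camk2a, Neurod6 and Itpka were called there, all lower, and only Neurod6 in the PV input, also lower. Summed levels of some other marker lists were higher in the CaMK2a input after kainic acid. There 9 PV interneuron markers summed to 1193 to 1308 CPM after kainic acid, against 979 to 1035 CPM after PBS. The 8 markers of other interneurons summed to 2946 to 4185 CPM, against 2171 to 2669 CPM. For 8 astrocyte markers the sums were 8814 to 9643 CPM, against 8186 to 8242 CPM. The sum for markers of other interneurons was also higher after kainic acid in the PV input (2264 to 2782 CPM, against 1762 to 1889 CPM) and in the PV IP (1623 to 2090 CPM, against 907 to 977 CPM). Of these 8 markers only Sst and Npy were called after kainic acid in the CaMK2a input, the PV input or the PV IP, both higher. In the CaMK2a IP after PBS the same list summed to 2366 to 2736 CPM, close to its input. Summed microglia markers in the CaMK2a input, and endothelial and mural markers there and in the PV IP, were apart in the same direction. Oligodendrocyte lineage sums overlapped in the CaMK2a input (4745.5 to 5356.3 CPM, against 4411.5 to 5030.8 CPM). Within the lists genes differed there: Kcnc2 (-0.70), P2ry12 (-1.73), Tmem119 (-0.42) and Slco1a4 (-0.97) were called lower. Gad1, Gad2, Slc32a1, Tac1, C1qa, C1qb, C1qc, Cldn5, Flt1 and Pecam1 of the same lists were called higher. None of the markers named here was at 0 in a group. The part of any of these in the members' changes was not tested.

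No member was called for a difference of kainic acid effects (all genes 0.00843% higher and 0.0169% lower for PV IP minus PV input, others at the level 0.0138% and 0.0275%, and 0% for CaMK2a input minus PV input), with 1 member at an unadjusted p under 0.05 in edgeR's test for PV IP minus PV input, 3 for the comparison of inputs, and 0 by DESeq2 in either.

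In the CaMK2a IP, whose 6 libraries chose the members, the effects are a description. There 79 members lay above 0 and 70 below it, with a median log2 fold change of 0.02. The groups did not overlap for 35 members that were higher and 34 that were lower after kainic acid (23.5% and 22.8%). This stands against 25.6% and 23.8% of all genes, and 29.4% and 26.5% of the others at the level. Zfp516 had 162.1, 61.1 and 80.0 CPM after kainic acid, against 18.9, 15.8 and 16.2 CPM after PBS (2.57), and Zfp948 had 36.9, 20.1 and 32.2 CPM, against 8.36, 6.95 and 8.18 CPM (1.92). Zfp703, Zfp667 and Zfp655 followed with 1.5, 1.15 and 1.02. The lowest were Zfp810, Zfp239, Zfp462, Zfp961 and Zfp827, at -1.09, -1.04, -1.04, -1.01 and -0.90.

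More members lay above than below 0 for IP over input, 118 against 31 in the PV line after kainic acid and 115 against 34 after PBS. In that line 20 of 149 members were higher in the IP than in the input after kainic acid (13.4%), against 6.85% of all genes and 8.48% of the other genes at the level of the rule. After PBS 31 were higher (20.8%), against 10.6% of all genes and 12.5% of the other genes at the level. By edgeR none was lower in either, against 4.11% and 7.98% of all genes and 4.54% and 9.77% of the others, with 0 and 2 at an unadjusted p under 0.05 and 0 by DESeq2. The median log2 fold change of IP over input was 0.30 after kainic acid and 0.35 after PBS, against 0.02 over all genes in each. The members called after kainic acid and after PBS shared 16 genes, which is 16 of 20 (80%) and 16 of 31 (51.6%), against 86% and 56.4% for all genes and 87.3% and 59.3% for the others at the level. These comparisons share no library, and across the 149 members their Spearman rho was 0.71.

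**Figure D3:**
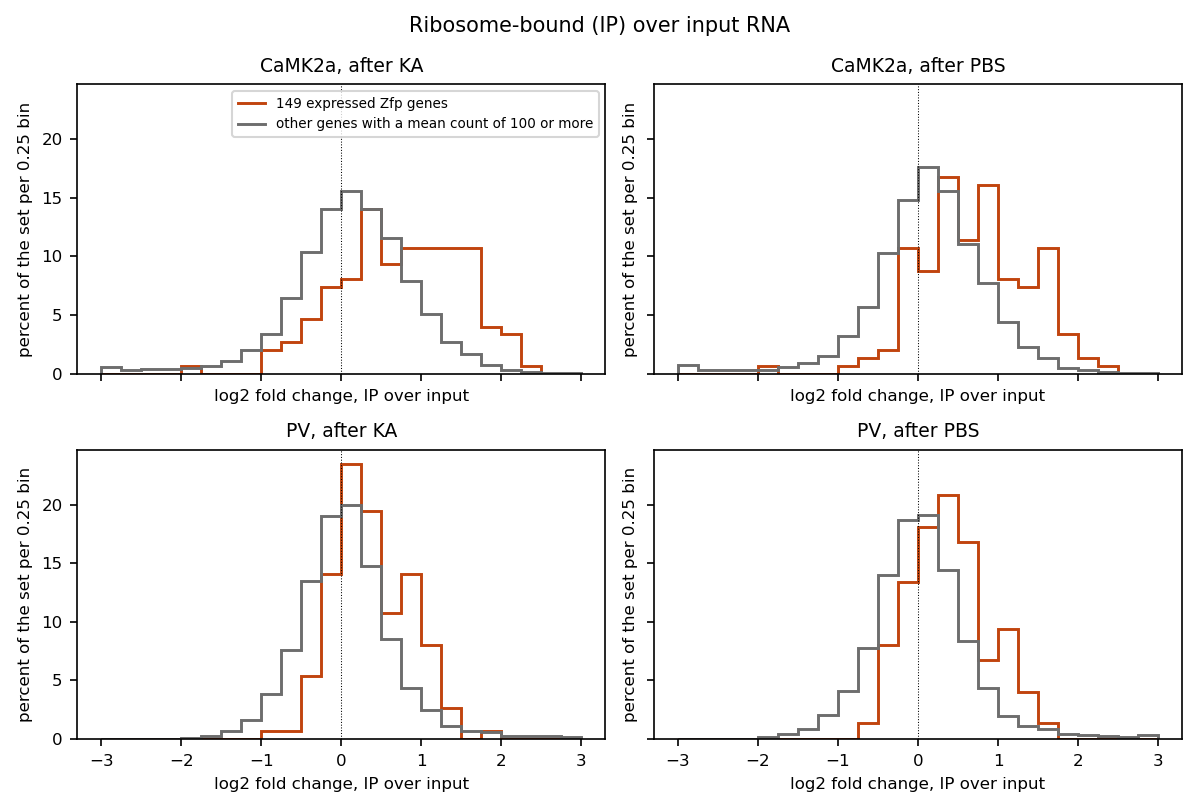
Distribution of log2 fold changes of IP over input in the CaMK2a line (top) and the PV line (bottom), after kainic acid (left) and PBS (right), as percent of each set per bin of 0.25. The red outline (149 members) lies to the right of the grey one (other genes with a mean count of 100 or more) in each panel, with member medians of 0.77 and 0.69 in CaMK2a and 0.30 and 0.35 in PV.

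In the PV line the shift was present in each pair of same-numbered IP and input libraries, taken as a lysate pool. In the 4 pools after kainic acid the median member stood at 0.33, 0.31, 0.36 and 0.35 on the log2 scale of IP over input, and in the 4 after PBS at 0.20, 0.31, 0.35 and 0.36, while the other genes at the level stayed between -0.04 and 0. Each of these 8 pools had 97 or more of 149 members above 0.

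Zfp629, with 19 finger motifs and no KRAB-like box, had the largest excess in the PV IP. It had 58.7, 107.5, 75.0 and 48.1 CPM in the PV IP after kainic acid, against 17.8, 24.9, 21.4 and 23.4 CPM in the input (log2 fold change 1.77 ± 0.27, adjusted p = 0.00076). After PBS it had 73.8, 58.8, 77.4 and 53.6 CPM in the IP, against 20.0, 21.3, 16 and 28.9 CPM in the input (1.64 ± 0.22, adjusted p = 0.00016). In the CaMK2a line it had 21.9, 16 and 19.6 CPM in the IP and 20.5, 19.6 and 19.3 CPM in the input after PBS, which overlap (-0.02, no test). After kainic acid it was lower in the CaMK2a IP, with 16.4, 20.2 and 14.6 CPM, against 23.0, 22.4 and 23.6 CPM in the input (-0.45, groups apart, no test).

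Zfp536, a brain factor known to hold back neuronal differentiation, was high in the PV IP and low in the CaMK2a IP. It had 151.6, 163.8, 122.7 and 136.5 CPM in the PV IP after kainic acid, against 60.4, 42.4, 56.6 and 55.8 CPM in the PV input (log2 fold change 1.47 ± 0.19, adjusted p = 0.00023). After PBS it had 195.5, 158.6, 207.5 and 123.5 CPM in the PV IP, against 61.4, 65.9, 58.0 and 53.2 CPM in the input (1.55 ± 0.17, adjusted p = 3.4e-05). In the CaMK2a line it went the other way, with 11.6, 16.9 and 13.5 CPM in the IP and 49.6, 50.8 and 45.1 CPM in the input after PBS (-1.81). It had the largest PV IP over CaMK2a IP value of all members, 3.35 after kainic acid and 3.61 after PBS. These values touch the libraries that chose the members and have no test. Zfp536 lies at chr7:37318023-37774204.

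Zfp37, a KRAB gene described in male germ cells and neurons, was high in the IP of both lines. It had 66.4, 59.0, 54.7 and 38.7 CPM in the PV IP after kainic acid and 37.2, 43.9, 31.1 and 14.9 CPM in the input, higher in the IP in each of the 4 pools. It missed the threshold without the pool as a block (log2 fold change 0.83 ± 0.30, adjusted p = 0.099) and passed with it (0.91 ± 0.21, adjusted p = 0.0066). After PBS it had 63.1, 54.5, 73.1 and 40.9 CPM in the PV IP, against 26.1, 29.4, 28.5 and 14.2 CPM in the input (1.27 ± 0.25, adjusted p = 0.0028). In the CaMK2a line it had 54.0, 60.3 and 56.6 CPM in the IP and 12.7, 12.8 and 15.1 CPM in the input after PBS (2.10, no test). Kainic acid left its groups overlapping in each fraction, with log2 fold changes of -0.37 ± 0.24 in the CaMK2a input, -0.11 ± 0.24 in the PV IP and 0.35 ± 0.32 in the PV input (adjusted p = 0.24, 0.89 and 0.56). Zfp37 lies at chr4:62189540-62209117 and carries 12 finger motifs.

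**Figure D4:**
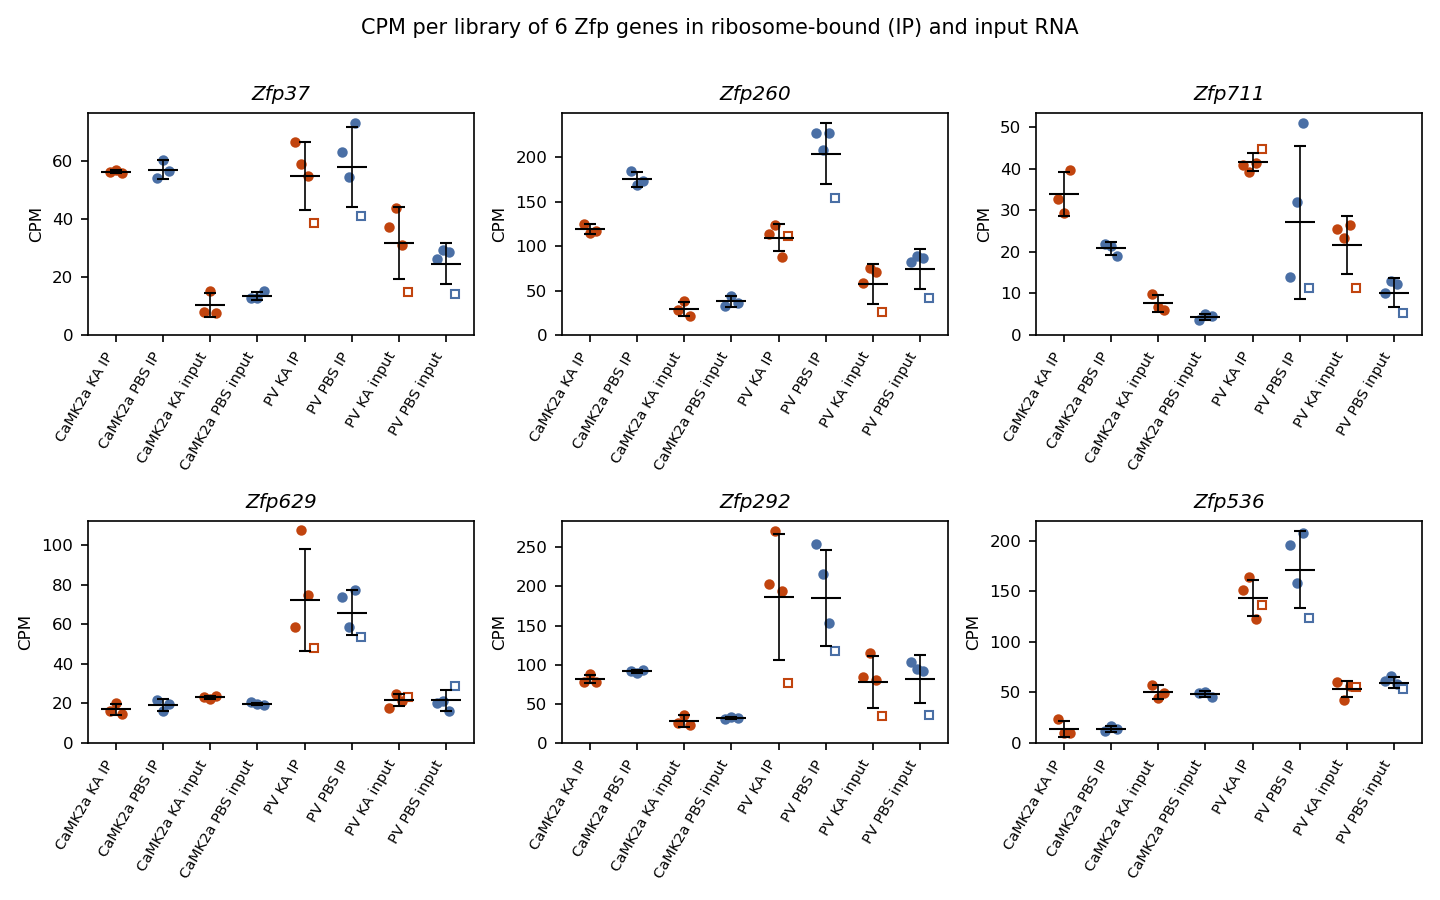
CPM per library of Zfp37, Zfp260, Zfp711, Zfp629, Zfp292 and Zfp536 in the 8 groups, drawn as in the plot of the 6 members that rose (red kainic acid, blue PBS, open squares PV replicate 4, bars mean ± SD). Zfp37, Zfp260, Zfp711 and Zfp292 are higher in the IP of both lines, Zfp629 in the PV IP, and Zfp536 is high in the PV IP and below input in the CaMK2a IP.

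Zfp260, Zfp62, Zfp711 and Zfp748 were the next highest in the PV IP after PBS. Zfp260 had 113.4, 124.1, 88.2 and 111.2 CPM in the PV IP after kainic acid, against 58.7, 74.9, 70.9 and 25.3 CPM in the input (log2 fold change 0.98 ± 0.28, adjusted p = 0.04). After PBS it stood at 1.49 ± 0.22 (adjusted p = 0.00038), and this difference of IP over input between treatments did not pass (-0.49 ± 0.38, adjusted p = 1). Zfp62 stood at 1.41 ± 0.31 after kainic acid (adjusted p = 0.0091) and at 1.45 ± 0.26 after PBS (adjusted p = 0.0015). Zfp748, a KRAB gene that shares exonic bases with 9430065F17Rik, passed only after PBS (1.38 ± 0.27, adjusted p = 0.003), with 0.60 ± 0.34 after kainic acid (adjusted p = 0.29). Zfp711 stood at 0.99 ± 0.27 after kainic acid (adjusted p = 0.032) and at 1.44 ± 0.44 after PBS (adjusted p = 0.036), where its IP libraries ran from 11.4 to 51.0 CPM and its call was lost without any library other than IP replicates 1 and 4 (0.94 to 1.59). Without PV IP replicate 1 after kainic acid, neither Zfp260 nor Zfp711 kept its call for that treatment. Their other fits with a library left out are not given for that treatment.

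Zfp292 had 202.5, 270.9, 194.6 and 76.9 CPM in the PV IP after kainic acid, against 83.7, 114.9, 80.2 and 34.4 CPM in the input. Its groups overlapped through PV replicate 4, which was lowest in both, while in each of the 4 pools the IP was higher. The log2 fold change was 1.29 ± 0.37 (adjusted p = 0.036), 1.29 ± 0.14 with the pool as a block (adjusted p = 1e-05) and 1.31 over replicates 1 to 3. After PBS it was 1.22 ± 0.30 (adjusted p = 0.011). Zfp770 (1.13 ± 0.26 after kainic acid and 1.14 ± 0.18 after PBS), Zfp608 (0.93 ± 0.21 and 0.95 ± 0.16) and Zfp281 (1.08 ± 0.18 and 1.01 ± 0.19) were called after both treatments. Zfp608 is known from regulation of Rag genes in thymocytes and shares exonic bases with Gm26742. Zfp148, which binds GC-rich DNA, was called after both as well (0.81 ± 0.22 and 0.70 ± 0.18), and so was Zfp91 (0.65 ± 0.18 and 0.54 ± 0.13). Zfp64 was called after kainic acid (1.24 ± 0.33, adjusted p = 0.025) and not over replicates 1 to 3 (1.10), and Zfp445 and Zfp462 after PBS (0.85 ± 0.25 and 0.72 ± 0.22). With the pool as a block Zfp445 was also called after kainic acid (0.80 ± 0.17, adjusted p = 0.0034). The following losses are in the fits without that block, and with it and all libraries these calls held. After kainic acid the calls of Zfp292 (1.05 to 1.33) and Zfp148 (0.68 to 0.81) were lost without any library other than IP replicate 4 and input replicate 2, and that of Zfp91 (0.58 to 0.72) without any other than IP replicate 4. The call of Zfp64 was lost without IP replicate 4 (1.13) or input replicate 1, 2 or 3 (1.14 to 1.33), and that of Zfp608 without input replicate 3 (0.86). After PBS that of Zfp445 was lost without IP replicate 1 or 3 or input replicate 2 or 3 (0.72 to 0.92), and that of Zfp462 without any library other than IP replicate 4 and input replicate 1 (0.57 to 0.73) and with upper-quartile factors (0.65), where that of Zfp91 after kainic acid was lost too (0.55).

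In the CaMK2a line the IP holds the libraries of the rule, so these values are described. After kainic acid 123 members lay above 0 and 26 below, with a median of 0.77, and after PBS 126 above and 23 below, with a median of 0.69. The other genes at the level, chosen by the same floor, had medians of 0.15 and 0.16. By pool the median member stood at 0.68, 0.64 and 0.96 after kainic acid and at 0.63, 0.64 and 0.67 after PBS, with other genes at 0.10 to 0.21. After kainic acid the members summed to 6829.5 to 7102.5 CPM in the IP and 4065.5 to 4745.3 CPM in the input. The groups were apart and the IP higher for 94 members after kainic acid and 105 after PBS (63.1% and 70.5%). This stands against 28.2% and 34.3% of all genes, and 37.8% and 46.2% of the others at the level. The IP was lower for 13 and 7 members (8.72% and 4.7%), against 30.6% and 33.8% of all genes and 21.9% and 26% of the others. Highest after kainic acid were Zfp37, Zfp948, Zfp157, Zfp711 and Zfp68, at 2.42, 2.23, 2.17, 2.13 and 2.01, with Zfp260 also at 2.01. After PBS the highest were Zfp711, Zfp260, Zfp37, Zfp68 and Zfp810, at 2.26, 2.24, 2.10, 1.97 and 1.93. Lowest after Zfp536 were Zfp275, Zfp423, Zfp319 and Zfp358 after kainic acid (-0.89, -0.86, -0.84 and -0.71), and Zfp275, Zfp516, Zfp423 and Zfp740 after PBS (-0.77, -0.70, -0.53 and -0.40). With upper-quartile factors the median of all genes moved by more than 0.1, to -0.15 after kainic acid and -0.13 after PBS, and that of the members to 0.64 and 0.57.

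**Figure D5:**
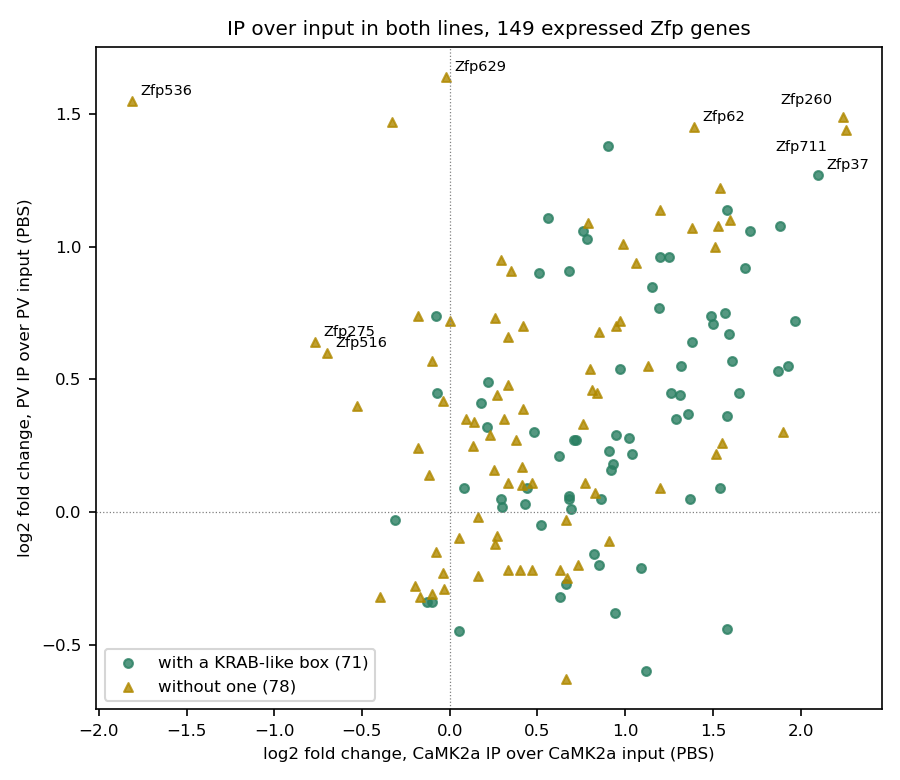
Log2 fold change of IP over input after PBS for each of the 149 members, in the CaMK2a line on the horizontal axis (no test) and in the PV line on the vertical axis, with green circles for members with a KRAB-like box and yellow triangles for those without. Zfp37, Zfp260, Zfp711 and Zfp62 are high in both, and Zfp536 lies at -1.81 in CaMK2a and at 1.55 in PV.

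Members with a KRAB-like box were higher in the CaMK2a IP than those without one, with median log2 fold changes over input of 1.06 and 0.42 after kainic acid and 0.93 and 0.39 after PBS. In the PV line the medians were 0.25 and 0.38 after kainic acid and 0.35 and 0.34 after PBS. After kainic acid 3 of 71 members with a box and 17 of 78 without one were called higher in the IP. This stands against 6.85% of all genes and 8.48% of the others at the level. After PBS 10 of 71 and 21 of 78 were called, against 10.6% of all genes and 12.5% of the others. Of the members with 10 or more finger motifs 24 of 87 were called in the PV IP after PBS (27.6%), against 6 of 50 with 3 to 9 motifs (12.0%) and 1 of 12 with fewer (8.33%). The share of all genes beside these is the same 10.6%. Across members the PBS values of IP over input in CaMK2a and in PV, which share no library, had a Spearman rho of 0.36. These splits are descriptions with no test.

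Related genes were read the same way. All counts of higher genes here stand against 6.85% of all genes after kainic acid and 10.6% after PBS. The gene lists were chosen with earlier results of these data known, so their shares are a description. The Zfp genes that are no members had medians of 0.39 after kainic acid and 0.49 after PBS in the PV line, with 1 of 112 (0.893%) and 11 of 121 (9.09%) tested called higher. Zscan and Zkscan genes, which also carry C2H2 fingers, had medians of 0.39 and 0.38 with 0 of 19 and 1 of 20 called (2 and 4 at an unadjusted p under 0.05), and Zbtb genes, which pair fingers with a BTB domain, had 0.03 and 0.27 with 4 and 5 of 27 called higher (14.8% and 18.5%). The list of Zfp genes without KRAB and with known roles in development, neurons or chromatin had 8 and 10 of 23 called higher (34.8% and 43.5%), Zfp536, Zfp711 and Zfp292 among them, with medians of 0.68 and 0.70. Of the Trim28 partners Chd4, the NuRD helicase, was higher in the PV IP by 2.35 ± 0.29 after kainic acid and 2.10 ± 0.17 after PBS (adjusted p = 0.00015 and 2.1e-06), while the list's medians were -0.23 and -0.17, with 1 of 18 and 3 of 19 higher and 1 and 0 lower. The list for silencing, imprinting and p75NTR had 0 and 3 of 8 higher (2 and 5 at an unadjusted p under 0.05), and that for RNA, ribosomes and protein turnover 1 of 11 after each.

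Astrocyte and microglia markers moved with the same contrast. The summed level of the 8 measured of 10 astrocyte markers was 3636 to 6731 CPM in the PV IP and 10348 to 11145 CPM in the PV input after kainic acid, and 4729 to 6421 CPM and 9158 to 11203 CPM after PBS. In the CaMK2a line it was 1298 to 2510 CPM in the IP and 8814 to 9643 CPM in the input after kainic acid, and 1374 to 2053 CPM and 8186 to 8242 CPM after PBS. The 10 microglia markers summed to 157.2 to 171.0 CPM in the PV IP and 387.8 to 549.8 CPM in the PV input after kainic acid, and to 125.4 to 185.1 CPM and 402.1 to 482.1 CPM after PBS. Oligodendrocyte lineage markers summed to 4248.0 to 5018.8 CPM in the PV IP and 5314.8 to 7776.4 CPM in the PV input after kainic acid. After PBS they overlapped, with 3523.7 to 5394.8 CPM in the IP and 4821.1 to 6736.7 CPM in the input. No marker of these lists was at 0 in any group. The listed length moved with membership as well, with a median of 4430 bases for the members and 3784 for the other genes at the level. The part of either in the members' excess was not tested.

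With the lysate pool as a block, 35 members were higher in the PV IP after kainic acid in place of 20, and 47 after PBS in place of 31, with the 20 and 31 among them and 0 and 2 lower. These are 23.5% and 31.5% of the members, against 11.7% and 15.8% of all genes and 15.1% and 19.6% of the others at the level in the same fits. After PBS only 1 of 4 IP libraries correlated best with the input of its own number, against 4 of 4 after kainic acid. Over PV replicates 1 to 3 the counts were 28 and 32 higher (18.8% and 21.5%, against 9.6% and 12.9% of all genes) and 0 and 2 lower, with 18 of the 20 and 28 of the 31 among them. Single libraries moved these counts by more than 1.5 times. After kainic acid 7, 13 and 12 were called without IP replicates 1, 2 and 3, and 9, 12 and 6 without input replicates 1, 2 and 3. Without IP replicate 1 the 7 were 4.7% of the members, against 5.42% of all genes, and without input replicate 3 the 6 were 4.03%, against 4.25%, so there the members' share lay near the background. After PBS 17 and 20 were called without input replicates 2 and 3 (11.4% and 13.4%, against 7.36% and 7.68% of all genes).

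Set against the CaMK2a IP, the PV IP held the members at a similar level, again as a description. The median log2 fold change of PV IP over CaMK2a IP was 0.04 after kainic acid and 0.09 after PBS, against -0.09 and -0.10 for the other genes at the level. The groups were apart with the PV IP higher for 13 members after kainic acid and 20 after PBS (8.72% and 13.4%). This stands against 17.4% and 21.4% of all genes, and 15.9% and 19.5% of the others at the level. The PV IP was lower for 12 and 20 (8.05% and 13.4%), against 16.7% and 21.3% of all genes and 22.3% and 28.9% of the others. After Zfp536, the highest were Zfp629, Zfp275, Zfp423 and Zfp608 after kainic acid (2.09, 1.24, 1.22 and 1.21), and Zfp629, Zfp275, Zfp516 and Zfp608 after PBS (1.77, 1.64, 1.46 and 1.22). Zfp423, known from adipocyte commitment and cerebellar development, and Zfp608 carry no KRAB-like box. The lowest after kainic acid were Zfp772, Zfp61, Zfp758, Zfp637 and Zfp1 (-1.17 to -0.98), and after PBS Zfp277, Zfp81, Zfp1, Zfp189 and Zfp821 (-1.04 to -0.91). Zfp189, tied to stress resilience in mouse prefrontal cortex, had 19.2, 19.6, 19.5 and 10.9 CPM in the PV IP after kainic acid and 27.5, 35.7 and 25.1 CPM in the CaMK2a IP.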

How the data were processed

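Reads were aligned to mm10 (GRCm38) with BWA and groups were compared with edgeR by the authors, per the submitters' processing notes, with versions and strandedness not given in the sources used here. Each library held amplified cDNA read as 75-base single ends, per the labels. The deposited counts are whole reads per coding gene and library and were analysed here. The deposited RPKM columns, scaled by the authors to length and library total, and the authors' own fold changes were not used for any value. Genes higher and lower were deposited apart and joined into 6 tables of 13384 to 14033 genes, and of 189281 counts that tables share 0 differed. The listed gene length came from the deposited tables.

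The groups of each comparison were fitted by edgeR 4.0.16 in R 4.3.3 with its quasi-likelihood test, scaled by TMM and adjusted by Benjamini-Hochberg over the genes that filterByExpr kept (minimum 10 counts), with 0.125 as prior count, checked on simulated counts. Each SE was taken as the absolute log2 fold change divided by the root of the F statistic. CPM used TMM factors over all 28 libraries, of 6.061 to 15.847 M counts. That depth sets the precision of the rare members, and p-values measure the spread between pools. KRAB-like boxes were found with pyhmmer 0.12.3 at an E-value of 0.001 from a profile of 99 proteins. Python tools were numpy, pandas, scipy and matplotlib.

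IP and input share a lysate pool, per the series' design. In the PV line 4 of 4 IP libraries after kainic acid correlated best with the input of their own number. After PBS only 1 of 4 did (r = 0.1, 0.13, 0.15 and 0.62), so there the numbering of the pools is uncertain. Deviations of same-numbered kainic acid and PBS libraries had r = 0.15, 0.12 and 0.33 in the CaMK2a input. In the PV input r was 0.26, 0.26, 0.22 and 0.76. Only 2 of 3 and 2 of 4 correlated best with their own number, so this pairing is uncertain. Other settings tried were factors by upper quartile or by relative log expression, leaving low genes in, DESeq2 1.42.0, the replicate block, PV replicates 1 to 3 only, and each library left out. Contrasts that hold the CaMK2a IP were not tested, since its libraries chose the members. Members, lists and tests were chosen with earlier results of these data known. Named were the 6 largest and 6 smallest log2 fold changes among called members of each tested comparison, the 5 largest and 5 smallest of each described one, the 5 highest and 5 lowest per kb, up to 3 called members of a list, and listed members. Zfp275's difference of effects was chosen after its values were seen. Some items are not reported here.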

Additional observations from a re-analysis of the deposited data

Results flagged for a closer look

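Members named above were looked at for a single library far from the other 3 of its PV group (by Dixon's ratio of the gap to the range). Chance flags about 1 in 20 groups, and 5 of the 108 groups tested here stood out. The summed CPM of the members was 6673 in PV IP after PBS replicate 4, against 8173 to 8468 in the other 3 libraries. Zfp260 had 41.2 CPM in PV input after PBS replicate 4, against 81.7 to 88.6 CPM in the others. Zfp292 had 35.8 CPM in that same library, against 92.1 to 103.4 CPM. Zfp74 had 17.7 CPM in PV input after kainic acid replicate 4, against 32.7 to 35.6 CPM. Of these 5, only the value of Zfp286 lies outside replicate 4: it had 20.5 CPM in PV IP after kainic acid replicate 1, against 5.50 to 7.15 CPM in the other 3.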

How the results depend on the processing

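Of the counts of members called, those in the CaMK2a input stayed within 1.5 times under each alternative, and the 2 differences of effects stayed at 0. With the replicate block, members lower in the PV IP were 5 (3 without it), lower in the PV input 22, higher in the PV IP than input 47 after PBS and 35 after kainic acid, and lower 2 after PBS; it moved no other count past 1.5 times. Pairing by number was uncertain in the PV IP as in the inputs. There r was 0.08, 0.05, 0.08 and 0.48, and 3 of 4 correlated best with their own number. This compares with 2 of 3 in the CaMK2a input and 2 of 4 in the PV input. DESeq2 gave 6 lower in the PV IP and 7 lower in the PV input. Upper-quartile factors gave 6 lower in the PV input and 1 lower in the PV IP than input after PBS. PV replicates 1 to 3 gave 14 higher and 13 lower in the PV input, and 2 lower in the PV IP than input after PBS. Leaving out 1 library gave 11 to 19 higher and 14 to 26 lower in the CaMK2a input, 5 to 6 and 1 to 3 in the PV IP (1 lower without kainic acid replicate 1 or PBS replicate 1 or 3), and 5 to 12 and 1 to 4 in the PV input (5 higher without kainic acid replicate 3, 1 lower without PBS replicate 1). For PV IP over input it gave 17 to 33 higher and 0 to 1 lower after PBS, and 6 to 23 higher and 0 lower after kainic acid. These counts stand here without the share of all genes in the same fits, of which some are given above. By these counts a move of the members cannot be told from a move of all genes. Of 60 values of named members followed through these fits, 17 lost their call when some library was left out and 6 under another setting. None of the 60 changed sign. Some named values were not among the 60, such as Zfp382 in the PV input and Zfp260 in PV IP over input after kainic acid. The described medians moved with upper-quartile factors to -0.08 in the CaMK2a IP. The causes were not tested. Depth limits the rare members most, and a missed threshold does not show equal levels.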
